A study of Mus musculus with 8 samples.

Results

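Nuclear genes for the subunits of the mitochondrial respiratory chain were followed across 8 Affymetrix arrays of mouse mPFC RNA. They were the genes whose symbols name subunits of complexes I to IV, of ATP synthase (complex V), or Uqcc assembly proteins of complex III. Each gene was represented by its brightest probe set among those annotated with 1 gene symbol. Of 22180 genes with such a probe set 83 matched, and 75 were bright enough to be tested, meaning that at least 2 of the 8 arrays exceeded the array's median over the named genes, as did 11712 genes in all. The 75 were 32 genes of complex I, 4 of complex II, 7 subunit genes and 3 assembly genes of complex III, 13 of complex IV and 16 of complex V.

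The mice carried a ribosome tag with GFP that is switched on by Cre, and CAV2-Cre, a Cre-carrying virus taken up at axon terminals, was injected in NAC or in VTA. The tag is thereby meant to mark mPFC cells that project to the injected site, and GFP-trap, an antibody-like GFP binder, recovers their ribosomes with the bound mRNA. There were 4 groups of 2 arrays: pull-down RNA from NAC-injected mice, pull-down RNA from VTA-injected mice, and input RNA, which went through no immunoprecipitation, from each. All groups, inputs included, came from virus-injected mice of the tagged line, and the input labels also name projecting cells although nothing was purified. The sources used here do not give strain, age, sex, the promoter of the tag or any pooling of animals. Nothing says that the arrays of a group come from separate animals, so the p-values reflect array-to-array spread that may be technical.

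The respiratory chain hands electrons from NADH (at complex I) and from succinate (at complex II) through complex III to complex IV, which reduces oxygen. Complexes I, III and IV pump protons across the inner mitochondrial membrane, and ATP synthase uses the returning protons to make ATP. Each complex except II joins subunits encoded in mitochondrial DNA with many encoded in the nucleus, which are made on cytosolic ribosomes and imported. A few subunits carry the catalytic sites and electron carriers, and the many others, often small proteins that cross the membrane once, are called accessory or supernumerary. Neurons depend on oxidative phosphorylation to restore ion gradients after firing and to power synapses.

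Promoters of these genes are shown first, since transcription factors known for joint control of respiratory genes bind there. A RefSeq table of mouse assembly GRCm38.p6 held a promoter for 62 of the 75 genes, and for each the most upstream annotated start was taken. The 250 bases before that start were searched on both strands. The full palindrome of nuclear respiratory factor 1 (NRF1), which is the core GCATGCGC with the letters GC before it, lay in 4 of the 62 windows (6.45%), against 0.777% of all 27025 promoters in the table. Those promoters, here and for the motifs below, were not limited to genes bright enough to be tested. Shares among the tested genes alone are not given. The first 3 sequences are those of the genes with this palindrome that rose in the pull-downs, with the palindrome in capitals, and the fourth is that of Uqcc2, whose window lacks these letters and whose pull-down difference was the largest of the 75.
Atp5g2, chr15:102671048-102671297, minus strand: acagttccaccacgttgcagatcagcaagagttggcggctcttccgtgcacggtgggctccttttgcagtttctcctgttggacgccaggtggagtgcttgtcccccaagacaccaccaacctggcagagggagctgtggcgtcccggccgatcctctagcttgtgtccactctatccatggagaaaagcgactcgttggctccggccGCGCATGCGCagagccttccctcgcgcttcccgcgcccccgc
Atp5k, chr5:108434400-108434649, minus strand: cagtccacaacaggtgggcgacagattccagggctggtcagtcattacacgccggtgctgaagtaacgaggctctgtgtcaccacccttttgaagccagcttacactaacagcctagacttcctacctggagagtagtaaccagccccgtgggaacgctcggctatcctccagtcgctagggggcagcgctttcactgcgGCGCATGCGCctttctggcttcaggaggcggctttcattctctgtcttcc
Ndufa11, chr17:56717512-56717761, plus strand: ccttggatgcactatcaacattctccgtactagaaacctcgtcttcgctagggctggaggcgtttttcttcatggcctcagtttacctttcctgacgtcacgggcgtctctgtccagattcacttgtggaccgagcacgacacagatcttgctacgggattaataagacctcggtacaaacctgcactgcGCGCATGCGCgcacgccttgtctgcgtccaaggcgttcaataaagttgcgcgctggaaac
Uqcc2, chr17:27133892-27134141, minus strand: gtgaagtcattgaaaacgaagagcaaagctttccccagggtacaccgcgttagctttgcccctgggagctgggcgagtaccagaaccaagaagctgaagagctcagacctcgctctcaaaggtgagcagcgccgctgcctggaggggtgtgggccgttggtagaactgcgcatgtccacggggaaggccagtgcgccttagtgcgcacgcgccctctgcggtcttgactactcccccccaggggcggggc

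The palindrome began 42 bases before the annotated start in Atp5g2, 50 bases before it in Atp5k and 60 bases before it in Ndufa11. The gene with the palindrome that missed the pull-down threshold was Cox6a1. The NRF1 core alone, which the palindrome contains, lay in 8 of the 62 windows (12.9%) and in 2.31% of all promoters. An ETS-type site, CCGGAAG, as bound by GABP, lay in 11 (17.7%) against 7.07%. The estrogen-related receptor site TGACCTTG lay in 3 (4.84%) against 1.3%. The YY1 site AAGATGGC lay in 0 windows against 1.58% of all promoters. Of the 41 windows of genes that rose, 6 held the NRF1 core and 6 the ETS letters, and of the 21 windows of the others 2 and 5 did. These matches describe letters, and binding was not measured.

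Array medians over the named genes ran from 5.86 to 5.98 (log2 signal), and correlations over all probe sets were 0.981 to 0.991 for the 4 pairs within groups and 0.973 to 0.988 for the 24 pairs between groups. Number of arrays, not read depth, limits the precision here. The tissue label was checked on marker genes. Of the 4 glutamatergic neuron markers with a probe set all were bright enough to be tested, and their summed linear signal was 8095 to 8375 in the inputs and 7147 to 7941 in the pull-downs. In limma 4 of 5 astrocyte, 3 of 4 oligodendrocyte, 4 of 5 microglial, 4 of 6 GABAergic and 2 of 4 glutamatergic markers fell in the pull-downs averaged over targets, as did 32.0% of all genes, and of 4 tested endothelial markers 1 rose and 1 fell. With each array centred on its median 4 astrocyte, 3 oligodendrocyte, 3 microglial and 3 GABAergic markers were lower. On that scale 1 glutamatergic marker was higher and none lower, and 1 endothelial marker was higher and 1 lower. Of all 11712 genes 2498 were then higher and 1753 lower. All 5 astrocyte markers were measured, and their summed signal was 3208 to 3747 in the inputs and 2057 to 2597 in the pull-downs. For the 4 measured oligodendrocyte markers it was 3267 to 3952 and 2532 to 2646, and for the 5 microglial markers 1432 to 1970 and 1060 to 1343. For the 6 GABAergic markers it was 5269 to 5443 in NAC inputs and 4506 to 4626 in NAC pull-downs, and the VTA ranges of 4835 to 4861 and 4850 to 4911 lay close together. For the 5 endothelial markers it was 504.3 to 552.3 and 467.9 to 534.3, with Tek under every array median. The part of these cells in the results that follow was not tested, and in such bulk RNA a smaller number of cells and less RNA per cell cannot be told apart.

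The first comparison asked which respiratory chain transcripts were more or less abundant on tagged ribosomes than in the input, averaged over both targets. Of the 75 genes 48 rose in the pull-downs (64.0%) and none fell, while of all 11712 genes 9.60% were called higher and 32.0% lower, 41.5% in all (limma, Benjamini-Hochberg adjusted p under 0.05). At an unadjusted p under 0.05, 53 were higher and 0 lower, and the all-gene count at that level is not given here. Their median difference was 0.31 on the log2 scale against a median of -0.11 over all genes. In 45 of the 75 every pull-down array lay above every input array (60%, against 7.91% of all genes), and in 2, Atp5a1 and Uqcrfs1, every pull-down lay below (24.8% of all genes). The deposited scale places most genes lower in pull-downs. With each array centred on its median the all-gene median was 0.03, 2498 genes were higher and 1753 lower against 1124 and 3742 before, and 60 respiratory genes were higher and none lower.

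**Figure D1:**
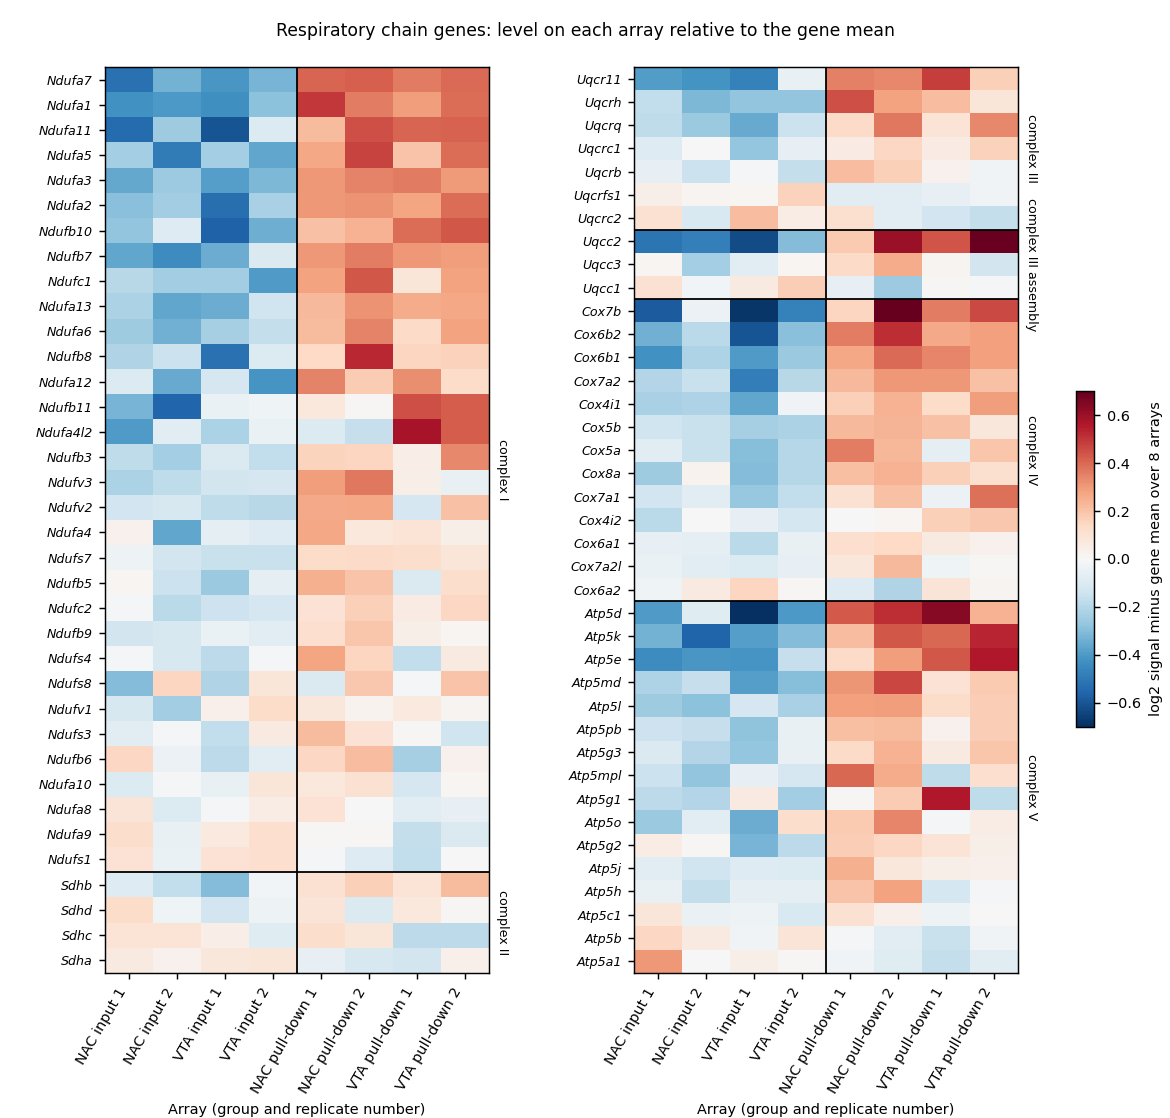
Heat map of the 75 genes (rows, by complex and by size of the pull-down difference) on the 8 arrays (columns, inputs left of the line and pull-downs right of it); colour is log2 signal minus the gene's mean over the 8 arrays, from blue (lower) to red (higher). The upper rows of complexes I, III, IV and V turn from blue to red at the line, as in the 45 genes whose pull-downs all lay above their inputs, while the lowest rows, such as Atp5a1 and Ndufs1, do not.

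Brightness alone decided which genes were tested. Of the 75 genes 69 exceeded the array median on all 8 arrays. Cox6b2 and Ndufa4l2 did so only on pull-down arrays, so that a pull-down excess was built into their choice. Of the 74 genes whose mean over the 8 arrays lay above the mean array median, 47 were higher in the pull-downs and 0 lower. That choice left out Ndufa4l2 but kept Cox6b2, so it does not remove the built-in excess, and its all-gene share is not given. Just inside the threshold were Ndufa4l2, above the median on 2 arrays, and Cox6b2, above it on 4. Just outside were Ndufs5, with a mean of 5.34, and Atp5j2, with a mean of 5.24. Ndufs5 was at 5.40 and 5.13 in NAC inputs, 5.28 and 5.38 in VTA inputs, 5.28 and 5.24 in NAC pull-downs and 5.88 and 5.15 in VTA pull-downs. Atp5j2 was at 5.26 and 5.27 in NAC inputs, 5.25 and 5.33 in VTA inputs, 5.39 and 5.59 in NAC pull-downs and 4.97 and 4.89 in VTA pull-downs. Both lay under the array median on all 8 arrays. The other 6 genes that were too dim were Cox7c, Cox7b2, Cox8b, Cox8c and the pseudogenes Atp5c1-ps and Uqcrh-ps1, with means of 2.57 to 4.86.

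Complex I, the NADH dehydrogenase, held the most genes. Of 32 genes 22 rose and none fell, with a median of 0.33. The 6 measured core subunits, which carry the flavin or iron-sulfur clusters or line the quinone site, had a median of 0.12, and 2 of them rose, Ndufv2 at 0.31 and Ndufs7 at 0.24. Of the 26 genes named as accessory 20 rose, and their median was 0.48. This division by role was drawn after the values had been seen and was not tested.

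Ndufa7, an accessory subunit of the matrix arm, was at 7.72 and 7.91 in the NAC inputs, 7.83 and 7.92 in the VTA inputs, 8.65 and 8.66 in the NAC pull-downs and 8.61 and 8.63 in the VTA pull-downs. Its 4 pull-downs thus lay close together and above all inputs, a rise of 1.73-fold (log2 0.79, SE 0.07, n = 4 and 4, limma adjusted p = 0.00016). Ndufa1, a small membrane subunit needed for assembly of the complex, was at 8.71 and 8.74 in NAC inputs, 8.71 and 8.85 in VTA inputs, 9.64 and 9.50 in NAC pull-downs and 9.43 and 9.53 in VTA pull-downs. Again no array overlapped, and the rise was 1.71-fold (log2 0.77, SE 0.07, limma adjusted p = 0.000186). Ndufa11, a membrane subunit whose promoter with the NRF1 palindrome is printed above, went from 9.18 and 9.47 to 9.94 and 10.17 with NAC and from 9.11 and 9.62 to 10.12 and 10.13 with VTA. The VTA inputs lay far apart here, and all pull-downs were above all inputs (1.68-fold, log2 0.74, SE 0.12, limma adjusted p = 0.00147). A second, dimmer probe set of Ndufa11 was also higher, at 0.42. Ndufa5, an accessory subunit of the matrix arm, went from 7.52 and 7.26 to 8.03 and 8.22 with NAC and from 7.51 and 7.39 to 7.95 and 8.14 with VTA, a rise of 1.59-fold without overlap.

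Other accessory subunits with rises above 0.6 were Ndufa3 (0.66), Ndufa2 (0.64), Ndufb10 (0.64) and Ndufb7 (0.63), each with all 4 pull-downs above all inputs. Ndufa12, an accessory subunit of the matrix arm, rose by 0.49 on its brighter probe set and by 0.96 on its other one, so that its direction was shared and its size was not. The smaller rises of Ndufb5 (0.23), Ndufc2 (0.23) and Ndufb9 (0.18) each lost their call in at least 4 of 8 fits that left out 1 array.

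Among core subunits, 4 missed the threshold. Ndufs1, the largest core subunit, which carries iron-sulfur clusters, was at 8.83 and 8.69 in NAC inputs, 8.84 and 8.85 in VTA inputs, 8.72 and 8.64 in NAC pull-downs and 8.56 and 8.73 in VTA pull-downs. Its pull-downs and inputs overlapped (difference -0.14, 95% interval -0.30 to 0.02). Ndufv1, which binds NADH and flavin, had a difference of 0.10 (interval -0.05 to 0.25), Ndufs3 one of 0.10 (interval -0.08 to 0.27) and Ndufs8 one of 0.14 (interval -0.13 to 0.40). With each array centred, Ndufv1 at 0.23 and Ndufs3 at 0.23 passed the threshold. Among accessory subunits, Ndufa9 had -0.13 and Ndufa10 0.04, and both overlapped with their inputs.

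Ndufa8 has a pair of bright probe sets that went apart. Its brighter probe set was at 10.33 and 10.15 in NAC inputs, 10.23 and 10.29 in VTA inputs, 10.34 and 10.24 in NAC pull-downs and 10.17 and 10.18 in VTA pull-downs. Its dimmer one was at 7.84 and 8.10 in NAC inputs, 7.48 and 8.07 in VTA inputs, 8.43 and 8.66 in NAC pull-downs and 8.71 and 8.42 in VTA pull-downs. The brighter one thus overlapped between pull-downs and inputs and the dimmer one did not. The brighter had a difference of -0.01 (interval -0.17 to 0.14) and the dimmer rose by 0.68, with an adjusted p of 0.00489 in a limma fit over single probe sets. The array does not tell which of them follows the gene. Ndufa4 is named for complex I but is known as a component of complex IV, and at 0.24 (limma adjusted p = 0.0598) it missed the threshold although its 4 pull-downs, at 10.90 to 11.13, lay above its inputs, at 10.50 to 10.89.

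**Figure D2:**
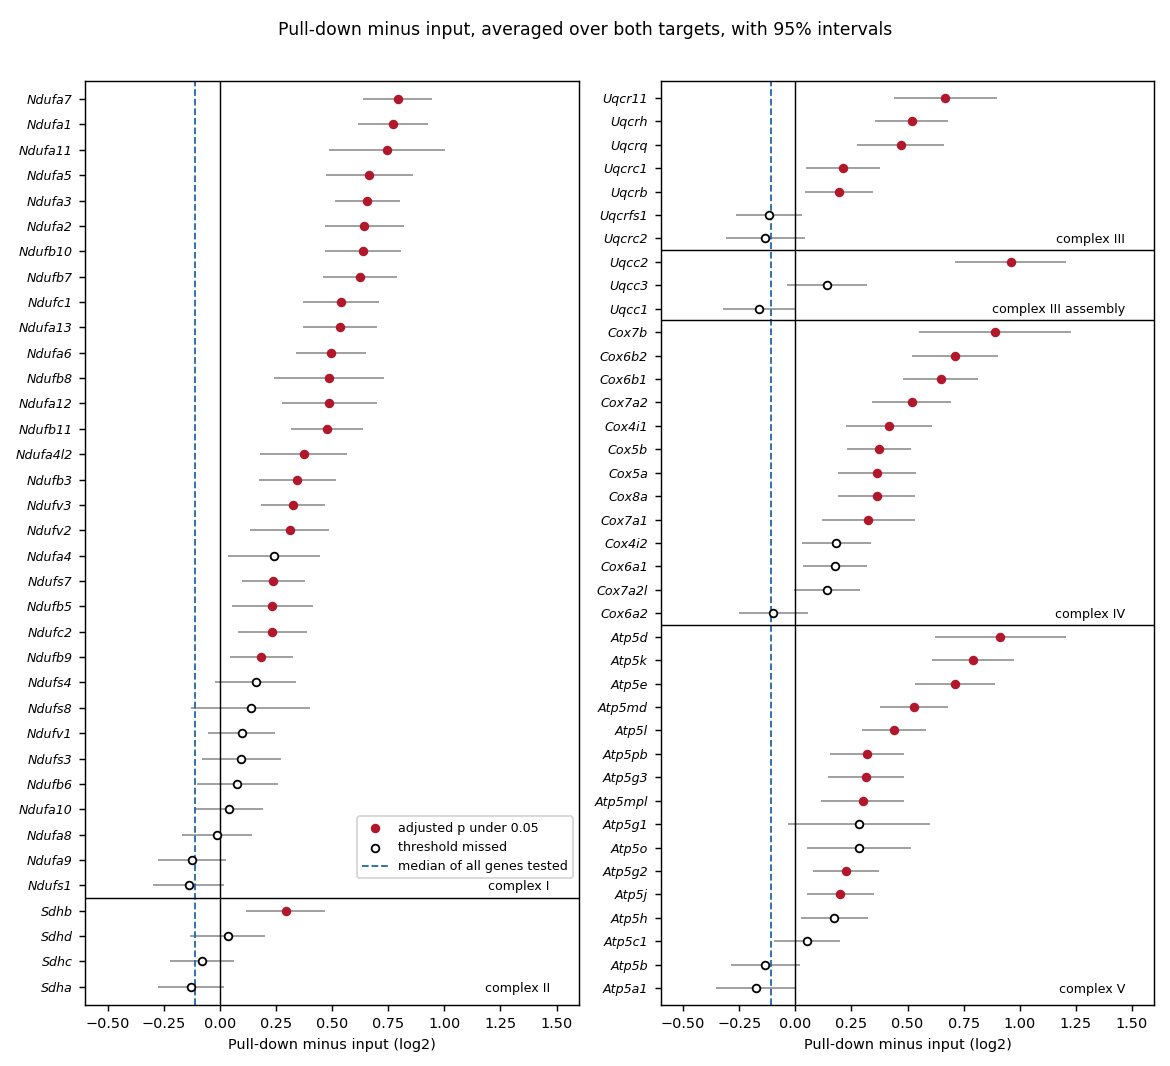
Pull-down minus input on the log2 scale, averaged over both targets, for each of the 75 genes by complex; points are limma estimates, filled where the adjusted p was under 0.05, bars are 95% intervals and the dashed line is the median of all 11712 genes (-0.11). Uqcc2 at 0.96, Atp5d at 0.91 and Cox7b at 0.89 lie farthest right, and no filled point lies left of 0.

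Complex II, succinate dehydrogenase, is the only complex encoded wholly in the nucleus, and the median of its 4 genes was -0.02. Among them Sdhb, the iron-sulfur subunit, rose. Sdhb was at 9.03 and 8.95 in NAC inputs, 8.82 and 9.10 in VTA inputs, 9.23 and 9.29 in NAC pull-downs and 9.22 and 9.35 in VTA pull-downs. The pull-downs lay above the inputs by a narrow margin (1.23-fold, log2 0.29, SE 0.08, limma adjusted p = 0.0157), and the call was lost without the second NAC input or the first VTA input. Sdha, the flavoprotein that oxidises succinate, had -0.13 (interval -0.28 to 0.02), and the membrane anchors Sdhc and Sdhd had -0.08 and 0.03.

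In complex III, which passes electrons from ubiquinol to cytochrome c, 5 of 7 subunit genes rose and none fell, with a median of 0.21. All 4 genes for small subunits were among them. Uqcr11 was at 7.11 and 7.08 in NAC inputs, 7.03 and 7.45 in VTA inputs, 7.85 and 7.84 in NAC pull-downs and 7.99 and 7.67 in VTA pull-downs. These did not overlap, and the rise was 1.59-fold (log2 0.67, SE 0.10, limma adjusted p = 0.00138). Uqcrh, the hinge protein at the cytochrome c1 contact, went from 8.61 and 8.47 to 9.24 and 9.07 with NAC and from 8.51 and 8.51 to 8.998 and 8.869 with VTA, 1.43-fold. Uqcrq, the ubiquinone-binding small subunit, went from 6.60 and 6.53 to 6.92 and 7.15 and from 6.43 and 6.63 to 6.88 and 7.12, 1.39-fold.

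Of the larger subunits 1 rose. Uqcrc1, a core protein facing the matrix, went from 10.60 and 10.69 to 10.75 and 10.84 with NAC and from 10.42 and 10.63 to 10.75 and 10.85 with VTA, a rise of 0.21 that was lost in 6 of 8 fits without 1 array. That of the small subunit Uqcrb, at 0.19, was lost in all 8. Uqcrc2, the partner core protein, had -0.13 (interval -0.31 to 0.04). Uqcrfs1, the Rieske iron-sulfur protein that takes electrons from ubiquinol, was at 7.16 to 7.31 in the inputs and 7.07 to 7.13 in the pull-downs. These ranges did not overlap, but the difference of -0.12 missed the threshold (limma adjusted p = 0.173).

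Among 3 assembly genes of complex III, Uqcc2, whose protein helps cytochrome b to be made and inserted, had the largest difference of all 75. It was at 6.90 and 6.94 in NAC inputs, 6.79 and 7.12 in VTA inputs, 7.60 and 8.02 in NAC pull-downs and 7.86 and 8.11 in VTA pull-downs. All pull-downs lay above all inputs, and the rise was 1.94-fold (log2 0.96, SE 0.11, n = 4 and 4, limma adjusted p = 0.000419). Its binding partner Uqcc1 had -0.16 (interval -0.323 to 0.001) and Uqcc3 had 0.14 (interval -0.04 to 0.32).

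Complex IV, cytochrome c oxidase, has its catalytic subunits encoded in mitochondrial DNA, so all 13 nuclear genes measured here are for supporting subunits. Of these 9 rose and none fell, with a median of 0.36. Cox7b, a small membrane subunit, was at 9.32 and 9.86 in NAC inputs, 9.22 and 9.43 in VTA inputs, 10.05 and 10.71 in NAC pull-downs and 10.26 and 10.36 in VTA pull-downs. The NAC pull-downs lay far apart, but pull-downs and inputs did not overlap (1.85-fold, log2 0.89, SE 0.15, limma adjusted p = 0.00211).

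Several complex IV subunits exist as pairs of isoforms, one broad and one known from particular tissues. Cox6b1, the broad form of a subunit on the outer face, went from 9.98 and 10.19 to 10.67 and 10.80 with NAC and from 10.00 and 10.14 to 10.74 and 10.69 with VTA, 1.57-fold. Its paralogue Cox6b2, known from testis, went from 5.62 and 5.77 to 6.31 and 6.47 and from 5.35 and 5.66 to 6.22 and 6.24, 1.64-fold, with inputs under the array medians so that the size is not exact. The rises were 0.65 for Cox6b1 and 0.71 for Cox6b2, and their difference was not tested.

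In the Cox7a family, Cox7a2, the broad form, was at 9.88 and 9.94 in NAC inputs, 9.60 and 9.90 in VTA inputs, 10.31 and 10.39 in NAC pull-downs and 10.39 and 10.30 in VTA pull-downs, a rise of 0.52. Cox7a1, the heart and muscle form, was at 5.98 and 6.04 in NAC inputs, 5.85 and 5.94 in VTA inputs, 6.22 and 6.32 in NAC pull-downs and 6.07 and 6.50 in VTA pull-downs. Its groups did not overlap, and the rise of 0.33 was lost in 3 fits without 1 array. Cox7a2l, which is known for joining complexes into supercomplexes, was at 7.53 and 7.50 in NAC inputs, 7.48 and 7.52 in VTA inputs, 7.66 and 7.80 in NAC pull-downs and 7.55 and 7.59 in VTA pull-downs. Its groups did not overlap, but at 0.14 (interval -0.01 to 0.29) it missed the threshold with the deposited scale and passed it with centring, at 0.28.

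Cox4i1, the broad form of a regulatory subunit that binds ATP, was at 10.27 and 10.28 in NAC inputs, 10.13 and 10.47 in VTA inputs, 10.67 and 10.74 in NAC pull-downs and 10.63 and 10.79 in VTA pull-downs. All pull-downs lay above all inputs, and it rose by 0.42. Cox4i2, known from lung and from low oxygen, was at 5.95 and 6.14 in NAC inputs, 6.09 and 6.02 in VTA inputs, 6.14 and 6.15 in NAC pull-downs and 6.30 and 6.33 in VTA pull-downs. Its groups overlapped, and its difference of 0.18 missed the threshold (limma adjusted p = 0.0569). Neither Cox6a1 nor Cox6a2 passed the threshold. Cox6a1, the broad form, was at 12.59 and 12.59 in NAC inputs, 12.46 and 12.60 in VTA inputs, 12.77 and 12.79 in NAC pull-downs and 12.71 and 12.68 in VTA pull-downs. Its pull-downs lay above its inputs (0.18, limma adjusted p = 0.0509). Cox6a2, the form of muscle and of some interneurons, was at 7.07 and 7.16 in NAC inputs, 7.25 and 7.10 in VTA inputs, 7.003 and 6.882 in NAC pull-downs and 7.18 and 7.11 in VTA pull-downs, with overlap (-0.10, interval -0.25 to 0.06). With centring Cox4i2, at 0.32, and Cox6a1, at 0.31, were called higher.

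Cox5a and Cox5b are different subunits despite their names. Cox5a was at 9.74 and 9.67 in NAC inputs, 9.52 and 9.62 in VTA inputs, 10.18 and 10.06 in NAC pull-downs and 9.76 and 10.02 in VTA pull-downs. Cox5b was at 10.44 and 10.42 in NAC inputs, 10.35 and 10.36 in VTA inputs, 10.81 and 10.82 in NAC pull-downs and 10.78 and 10.66 in VTA pull-downs. Neither overlapped, and they rose by 0.36 and 0.37. Cox8a, the broad form of another small subunit, was at 11.46 and 11.74 in NAC inputs, 11.41 and 11.51 in VTA inputs, 11.92 and 11.95 in NAC pull-downs and 11.88 and 11.82 in VTA pull-downs. Its groups did not overlap, and it rose by 0.36.

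**Figure D3:**
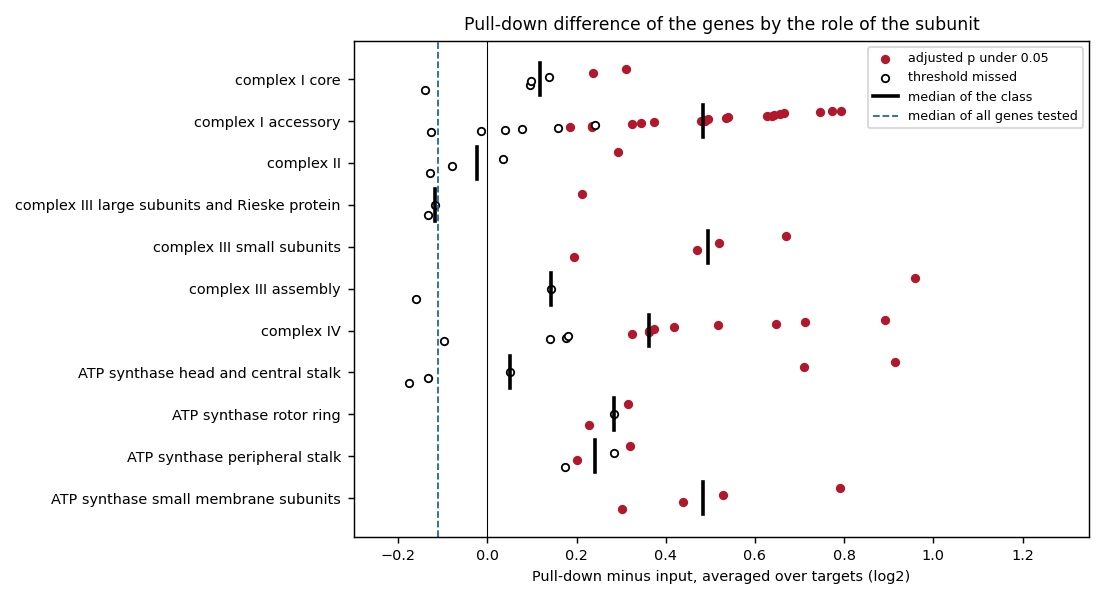
Pull-down minus input (log2, averaged over both targets) of the 75 genes by the role of the subunit, 1 point per gene, filled where the adjusted p was under 0.05; vertical bars are class medians and the dashed line is the median of all genes tested. The medians of complex I accessory subunits (0.48), complex III small subunits (0.50) and ATP synthase small membrane subunits (0.48) lie right of those of complex I core subunits (0.12) and complex II (-0.02).

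ATP synthase consists of a catalytic head, a rotating central stalk with its ring of c subunits, a peripheral stalk and small membrane subunits, and 10 of its 16 genes rose while none fell (median 0.29). Within the head and central stalk the genes went apart. Atp5d, the delta subunit at the foot of the central stalk, was at 9.50 and 9.81 in NAC inputs, 8.96 and 9.49 in VTA inputs, 10.33 and 10.41 in NAC pull-downs and 10.53 and 10.14 in VTA pull-downs. Its groups did not overlap (1.88-fold, log2 0.91, SE 0.13, limma adjusted p = 0.00108). A second bright probe set of Atp5d was at 9.20 and 9.23 in NAC inputs, 9.08 and 9.17 in VTA inputs, 9.48 and 9.36 in NAC pull-downs and 9.27 and 9.22 in VTA pull-downs. It overlapped between pull-downs and inputs, had 0.16 and missed the threshold (limma adjusted p = 0.0707 in a fit over single probe sets), so the size of this rise rests on 1 probe set. Atp5e, the epsilon subunit beside it, went from 7.68 and 7.71 to 8.25 and 8.41 with NAC and from 7.70 and 7.96 to 8.55 and 8.68 with VTA, 1.64-fold, and its second probe set rose by 0.64.

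The head genes Atp5a1 and Atp5b and the shaft gene Atp5c1 missed the threshold. Atp5a1, the alpha subunit, was at 11.54 and 11.23 in NAC inputs, 11.28 and 11.25 in VTA inputs, 11.21 and 11.15 in NAC pull-downs and 11.07 and 11.16 in VTA pull-downs. Every pull-down lay below every input, and the difference was -0.17 (interval -0.353 to 0.003, limma adjusted p = 0.103). Atp5b, the catalytic beta subunit, had -0.13 (interval -0.29 to 0.02), and Atp5c1, the gamma subunit of the shaft, had 0.05 (interval -0.10 to 0.20). With quantile normalization Atp5b, at -0.19, was called lower, and so was Atp5a1, at -0.25, without the second NAC input. With centring Atp5b had 0.001 and Atp5c1, at 0.19, was called higher.

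All 4 tested genes for small membrane subunits of ATP synthase rose. Atp5j2, of the same class, was too dim to be tested. Its VTA pull-downs, at 4.97 and 4.89, lay below its VTA inputs, at 5.25 and 5.33. With NAC its pull-downs, at 5.39 and 5.59, lay above its inputs, at 5.26 and 5.27. Atp5k, the e subunit, whose promoter is printed above, went from 8.71 and 8.48 to 9.26 and 9.48 with NAC and from 8.66 and 8.74 to 9.45 and 9.58 with VTA. No array overlapped, and the rise was 1.73-fold (log2 0.79, SE 0.08, limma adjusted p = 0.000292). Atp5md, a small protein also known as DAPIT, was at 11.63 and 11.69 in NAC inputs, 11.46 and 11.55 in VTA inputs, 12.15 and 12.31 in NAC pull-downs and 11.94 and 12.03 in VTA pull-downs, 1.44-fold. Atp5l, the g subunit, rose by 0.44, and Atp5mpl, a small proteolipid, by 0.30, a call lost without the second NAC input or the second VTA input.

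The c subunits of the rotor ring are encoded by 3 genes whose mature proteins are the same. Atp5g3 was at 8.62 and 8.52 in NAC inputs, 8.46 and 8.67 in VTA inputs, 8.86 and 8.97 in NAC pull-downs and 8.79 and 8.92 in VTA pull-downs. Its groups did not overlap, and it rose by 0.32. Atp5g2, whose promoter is printed above, was at 10.31 and 10.27 in NAC inputs, 9.94 and 10.08 in VTA inputs, 10.44 and 10.41 in NAC pull-downs and 10.36 and 10.30 in VTA pull-downs. It rose by 0.23 on this probe set and by 0.21 on the other one, with overlap between the groups, and the call was lost in 4 fits without 1 array. Atp5g1, near the array medians, was at 5.93 and 5.91 in NAC inputs, 6.18 and 5.87 in VTA inputs, 6.12 and 6.29 in NAC pull-downs and 6.67 and 5.94 in VTA pull-downs. It overlapped between groups and missed the threshold (0.28, interval -0.03 to 0.60). Of the peripheral stalk, Atp5pb rose by 0.32 and Atp5j by 0.20, the latter lost in 7 of 8 fits without 1 array. Atp5o had 0.28 (limma adjusted p = 0.0513) and Atp5h 0.17 (limma adjusted p = 0.0607), and both were called higher with centring or quantile normalization. A second probe set of Atp5h, too dim to be tested, went the other way and was at 5.21 and 5.33 in NAC inputs, 5.39 and 5.48 in VTA inputs, 5.09 and 4.64 in NAC pull-downs and 5.12 and 4.48 in VTA pull-downs, so that its pull-downs all lay below its inputs.

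Within each target the same comparison rests on 2 pull-downs and 2 inputs. With NAC 34 of the 75 genes rose (45.3%) and none fell, against 4.34% of all genes higher and 8.01% lower (12.3% in all). With VTA 35 rose (46.7%) and none fell, against 5.44% and 25.9% (31.3% in all). At an unadjusted p under 0.05 none was lower with NAC and 2 were lower with VTA, Ndufa9 at -0.22 and Uqcrc2 at -0.28. All-gene counts at that level are not given here. The median difference was 0.34 with NAC and 0.28 with VTA. These counts leaned on single arrays, and so did those of all genes. Both NAC counts fell steeply without the second NAC pull-down, the first NAC input or the second NAC input, which leaves 1 array in a group. The median difference of the 75 genes was then 0.341, 0.376 and 0.33, against -0.032, -0.045 and -0.076 over all genes. Both VTA counts fell steeply without the first VTA input, with medians of 0.24 and -0.148. Pull-downs lay wholly above inputs in 58 of the 75 genes with NAC (77.3%, against 22.8% of all genes) and in 50 with VTA (66.7%, against 16.0%). They lay wholly below in 6 with NAC (against 39.5% of all genes) and in 10 with VTA (against 53.0%).

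The targets share no arrays in these comparisons, and the genes kept much of their order. Across the 75 genes Pearson's r between the NAC and VTA differences was 0.83 and Spearman's rho 0.83, compared with 0.69 and 0.67 over all 11712 genes. Genes are not independent replicates. The sign was shared by 66 of the 75 genes (88.0%, against 75.7% of all genes). Called in both targets were 28 genes, which is 82.4% of those called with NAC and 80.0% of those called with VTA. Over all genes 954 were called in both, 66% of those called with NAC and 26% of those called with VTA. Uqcc2, at 0.89 with NAC and 1.03 with VTA, Cox6b1, at 0.65 and 0.64, and Cox5b, at 0.38 and 0.37, were examples of near-equal values.

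**Figure D4:**
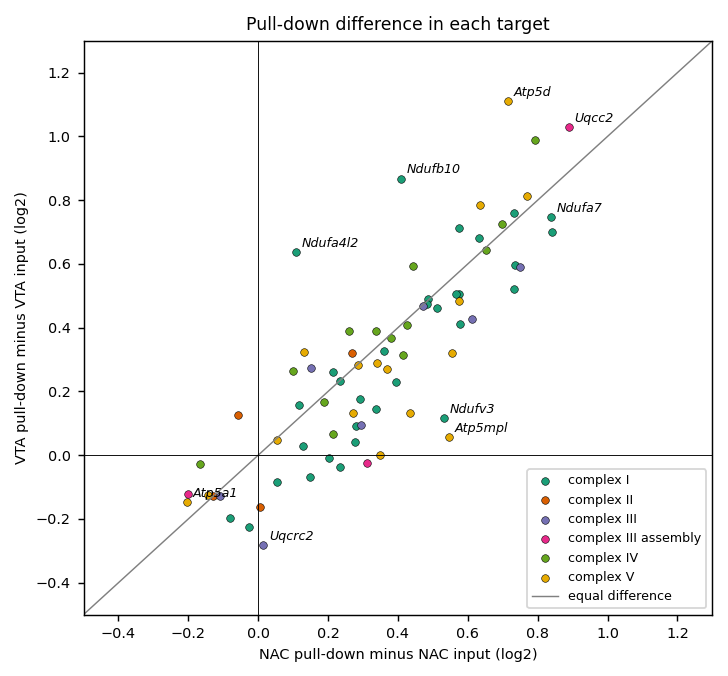
Pull-down minus input with VTA (vertical axis, log2) against the same with NAC (horizontal axis, log2) for the 75 genes, coloured by complex, with the line of equal difference. Most points follow the line, with Ndufa4l2 and Ndufb10 above it and Ndufv3 and Atp5mpl below it, and no gene passed the test of the difference. Ndufa4l2 was bright enough to be tested only through its VTA pull-downs.

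Whether the pull-down difference itself depended on the target was tested as the VTA difference minus the NAC difference. None of the 75 genes passed in limma (8 of 11712 genes did, 0.0683%, with 0.00854% higher in VTA and 0.0598% lower), and 5 had an unadjusted p under 0.05, against 1409 of all genes. The values ran from -0.49 to 0.53, the lowest adjusted p was 0.283, and the median width of the 95% interval was 0.68. The interval reached 0.5 or -0.5 in 32 of the 75 genes, so a difference of that size was within the error there. Ndufa4l2, a paralogue of Ndufa4 known to be induced by low oxygen, had the highest at 0.53. Only its VTA pull-downs exceeded the array medians, so an excess with VTA was built into its choice and its value is a description. Ndufb10, an accessory membrane subunit, had 0.46, with a difference of 0.41 in NAC and 0.87 in VTA. On the other side Atp5mpl had -0.49, from 0.55 in NAC and 0.06 in VTA, Ndufv3, an accessory subunit beside the NADH site, had -0.41, from 0.53 and 0.12, and Atp5h had -0.35, from 0.349 and -0.001.

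Pull-downs of the 2 targets were also set directly against each other. Of the 75 genes 1 was higher with VTA (0.418% of all genes) and none lower (2.05%, with 2.47% called in all). At an unadjusted p under 0.05 there were 3 higher and 7 lower, and the all-gene count at that level is not given here. The gene called was Ndufa4l2, at 5.68 and 5.62 in the NAC pull-downs and 6.35 and 6.20 in the VTA pull-downs, with 5.38 and 5.70 in NAC inputs and 5.55 and 5.73 in VTA inputs. Only the VTA pull-downs exceeded the array medians, so the gene entered the test through the group where it was high, and its difference of 0.63 (SE 0.12, limma adjusted p = 0.0267) is a description. The call was lost without either NAC pull-down, without the first VTA pull-down or without either VTA input, where the adjusted p lay between 0.0535 and 0.119.

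The other 74 genes differed between the pull-downs by -0.36 to 0.40. The VTA pull-downs lay wholly below the NAC pull-downs in 33 of the 75 (44.0%, against 28.8% of all genes) and wholly above in 8 (10.7%, against 15.4%). In the inputs none of the 75 genes differed between targets in limma (0.120% of all genes were higher with VTA and 1.38% lower, 1.50% in all). At an unadjusted p under 0.05 there were 5 of the 75, against 1276 of all 11712 genes. The values ran from -0.43 for Atp5d to 0.40 for Ndufb11. Ndufb11, an accessory membrane subunit, was higher with VTA by 0.40 both in inputs, at 6.01 and 6.02 against 5.73 and 5.50, and in pull-downs, at 6.51 and 6.48 against 6.13 and 6.06. Neither difference passed the threshold.

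Other genes of energy metabolism were counted in the averaged comparison from lists drawn up with earlier results known, and their medians stand beside the 0.31 of the respiratory chain genes. Of all 11712 genes 9.60% were higher and 32.0% lower, or 2498 and 1753 genes with centring, and the counts are to be read against these shares. Of 12 subunits, carriers and related proteins outside the naming rule, 7 rose and 1 fell (58.3% and 8.33%, median 0.25), and with centring 11 were higher and 1 lower. The copper chaperone gene Cox17 rose by 0.55, Cycs, which encodes cytochrome c, by 0.32 and Higd1a by 0.29, and Nnt, the nicotinamide nucleotide transhydrogenase, fell by 0.54. Of 40 assembly factors 6 rose and 7 fell (15% and 17.5%, median 0.01), and with centring 18 were higher and 2 lower. Ndufaf2, an assembly factor of complex I, rose by 0.68 and Cox20 by 0.64, while Foxred1 fell by 0.60 and Cox15 by 0.58. Cox20 had 0.95 with NAC and 0.33 with VTA, where it missed the threshold, and its pull-downs overlapped its inputs.

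Counts for enzymes upstream of the chain, carriers and regulators stand beside 32.0% of all 11712 genes called lower on the deposited scale. With centring 2498 of all genes were higher and 1753 lower. In lists this small 1 gene moves a share by several percent, and no difference from all genes was tested. Of 18 genes of the tricarboxylic acid cycle and pyruvate entry 1 rose, Suclg1 at 0.31, and 5 fell, among them Cs, citrate synthase, at -0.45 and Idh3b at -0.40 (27.8% lower, median -0.06, and 2 higher and 3 lower with centring). Of 12 glycolytic genes none rose and 3 fell, Aldoc, known as an astrocytic form, at -0.44, Pfkp at -0.36 and Pfkm at -0.28 (25% lower, median -0.11, and 1 higher and 2 lower with centring). Of 24 carriers, import proteins and channels 4 rose and 6 fell (16.7% and 25%, median -0.01, and 10 higher and 1 lower with centring). The small import chaperones Timm13 and Timm8b rose by 0.62 and 0.58, whereas the aspartate-glutamate carrier gene Slc25a12 fell by 0.49. Of 17 regulators of mitochondrial biogenesis none rose and 2 fell, Gabpb1 at -0.26 and Gabpa at -0.25 (11.8% lower, median -0.08, and 3 higher and 0 lower with centring). Of 10 mitochondrially encoded genes 1 rose, ND6 at 1.19, and none fell (10% higher, median 0.06, and 6 higher with centring). By target the largest difference in this list was 0.60 with NAC, where none was called, and 1.79 with VTA, where 1 was.

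**Figure D5:**
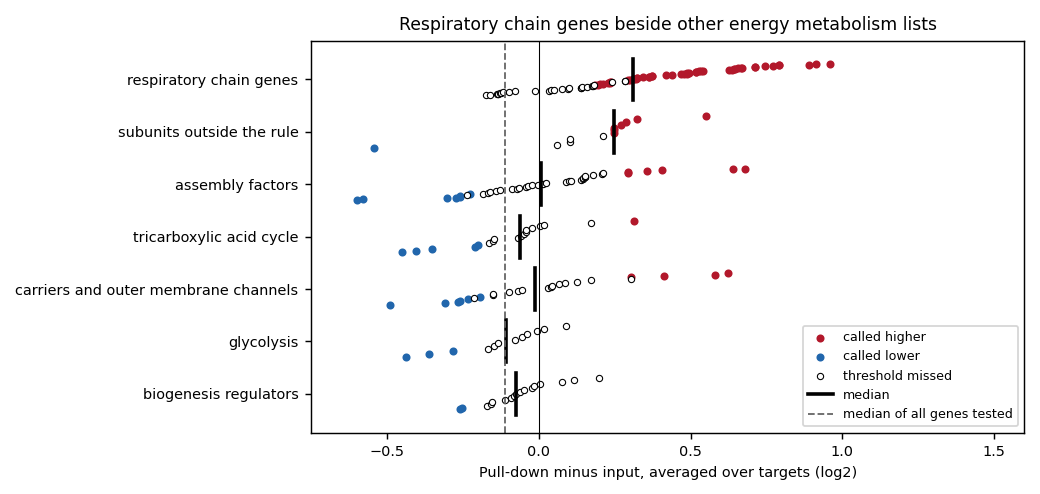
Pull-down minus input (log2, averaged over both targets) for the 75 respiratory chain genes and 6 other lists, 1 point per gene, red where called higher, blue where called lower and open where the threshold was missed; black bars are list medians and the dashed line is the median of all genes tested (-0.11). The respiratory chain median of 0.31 and that of the related subunits, 0.25, lie right of the other 5 lists drawn, whose medians run from -0.11 to 0.01; the mitochondrially encoded list, with a median of 0.06, is not drawn.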

How the data were processed

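The deposited values are on a log2 scale and cover 41345 probe sets, made by the authors with Transcriptome Analysis Console per the submitters' processing notes, in which its version and settings are not given. The values were used as deposited. Gene names came from GEO's platform table, where 23521 probe sets had 1 symbol, 1814 several and 16010 none. A model with a mean per group was fitted to all 8 arrays and 11712 genes with limma 3.58.1 in R 4.3.3 (lmFit, eBayes, two-sided, 4 residual degrees of freedom plus 6.07 from moderation). P-values were adjusted over all genes by Benjamini-Hochberg. The code was tested on simulated data. Full values are given for up to 4 called genes per complex, for genes called between targets, for paralogues, for genes with disagreeing probe sets and for those at the filter's edge. Genes, lists and rules were chosen with earlier results of these data known. Alternatives were array centring, quantile normalization, no filter, averaged probe sets, replicate blocks and leaving out each array.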

Additional observations from a re-analysis of the deposited data

How the results depend on the processing

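The averaged count of 48 was 60 with centred arrays and 55 with quantile normalization (54 higher, 1 lower). It was 37 without the brightness filter and 49 with averaged probe sets. In the 8 fits without 1 array the median difference of the 75 genes ran from 0.268 to 0.334, against -0.125 to -0.09 over all genes. Of the 48 genes 37 were called in all 8 of those fits. Over all genes the averaged comparison called 2498 higher and 1753 lower with centring and 1648 and 2699 with quantile normalization. It called 1056 and 2395 without the filter and 1182 and 3553 with averaged probe sets. Without the filter, where the fit and the adjustment both take in more genes, the NAC count was 3 and the VTA count 21. Which of these lowered the counts was not tested. Of all 22180 genes 49 were then higher and 56 lower with NAC, and 552 and 1355 with VTA. Without 1 array the NAC count ran from 4 to 35 and the VTA count from 8 to 32. The count between pull-downs was 2 with centring, where 96 of all genes were higher and 196 lower. It was 0 without the filter, where 13 and 100 were. Without 1 array the difference of Ndufa4l2 between pull-downs ran from 0.552 to 0.705. The counts between inputs and for the difference of enrichment were 0 in every alternative run.

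A replicate block changed little. With the number as a block over all groups the averaged count was 50, where 1149 of all genes were higher and 3733 lower. With it within a target the count was 51, against 1205 and 3883 of all genes. The NAC counts were 36 (all genes 525 higher, 930 lower) and 35 (561 and 1017). The VTA counts were 35 (34 higher, 1 lower) and 36 (35 higher, 1 lower), against 622 higher and 3004 lower, then 699 and 3191, of all genes. Deviations of same-numbered arrays correlated at 0.299 for NAC pull-down and NAC input, 0.221 for the 2 inputs, 0.182 for NAC pull-down and VTA input, -0.022 for VTA pull-down and VTA input, -0.072 for VTA pull-down and NAC input and -0.134 for the 2 pull-downs. Sample titles number each input like a pull-down of its target, such as N1 and inN1, without saying that they share animals. Since not every pair correlated above 0.1, the numbers were not taken as pairs. Correlations across targets do not bear on whether an input belongs to its pull-down, and the block within a target gives the counts with such pairing. Crossing the VTA pull-down numbers, chosen after seeing the data, left 1 call between pull-downs.

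Differences that missed the threshold changed sign with centring for Atp5b (0.001), Cox6a2 (0.038), Ndufa8 (0.121), Ndufa9 (0.01), Sdha (0.007), Sdhc (0.056), Uqcrc2 (0.002) and Uqcrfs1 (0.018). Ndufa8 had 0.047 with quantile normalization and, with averaged probe sets, 0.333, where it passed. Atp5h had -0.173 with averaged probe sets, 1 of them too dim to test. Without 1 array Ndufa8 ran from -0.06 to 0.032 and Sdhd from -0.013 to 0.081. The cause of these shifts was not tested beyond what the alternatives themselves change.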
